A study of Homo sapiens with 12 samples.

Results

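The 10 genes described here encode NF-kB subunits (RELA, RELB, NFKB1 and NFKB2), the feedback inhibitors NFKBIA and TNFAIP3, the signalling adaptor TRAF1, its partner BIRC3, and the inducible targets TNFAIP2 and ICAM1. They were found by symbol among the 58051 genes counted in 12 RNA-seq libraries from 3 human renal carcinoma lines. The set was put together with earlier results of these libraries known, and TRAF1 was taken because of the difference between treated and control libraries. Each treated-against-control difference of these 10 genes is therefore given as a description. No p is printed for these differences, and none is read as a test result. 786-O cells were transfected with miR-29 mimic or with control mimic (1 library each), A-498 cells with the same agents (2 libraries each), and ACHN cells with miR-29 inhibitor or control inhibitor (3 libraries each). Every transfection used 10 nM of oligonucleotide and RNA was collected at 48 h. A mimic supplies extra miRNA, whereas an inhibitor is an antisense oligonucleotide that sequesters the endogenous one. All groups are transient transfections of established lines, and no untransfected library was analysed here. The study's methods call the replicate libraries of A-498 and ACHN biological replicates.

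NF-kB is a family of dimeric transcription factors held in the cytoplasm by inhibitor proteins of the IkB class. In the canonical route, receptors for TNF, interleukin-1 or microbial products activate an IkB kinase, IkB is degraded, and dimers such as RELA with the p50 product of NFKB1 enter the nucleus. In the non-canonical route, NFKB2 is processed to p52, which acts with RELB. Several genes switched on by NF-kB encode its own brakes, so NFKBIA (IkB-alpha) and TNFAIP3 (the ubiquitin-editing protein A20) close feedback loops. TRAF1 and BIRC3 (cIAP2) join TNF receptor complexes and are themselves NF-kB targets. miR-29 is a family of miRNAs that pair through their seed, bases 2 to 8, with sites in the 3′ UTR of target mRNAs.

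The mature miR-29 sequences (RefSeq, GRCh38.p14) are shown because the seed, in capitals, is what was searched for in the 10 genes. The labels name the agents as miR-29 mimic and inhibitor without the family member, and the study's text calls the mimic miR-29b. The mature mimic sequence printed in the study's methods holds the same seed but is not identical to any sequence below. All members share 1 seed.
hsa-miR-29a-3p: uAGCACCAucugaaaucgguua
hsa-miR-29b-3p: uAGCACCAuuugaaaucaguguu
hsa-miR-29c-3p: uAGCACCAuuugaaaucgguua

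The complement of the seed, TGGTGCT, occurred in an annotated 3′ UTR of 3 of the 10 genes (TNFAIP3, TRAF1 and RELA). Among all 19246 protein-coding genes with an annotated 3′ UTR, 15% held it in their longest 3′ UTR. The matches below are on GRCh38 with GENCODE v44 isoforms and lie in capitals within 30 bases of the transcript strand. The TNFAIP3 match, at chr6:137881377-137881384 on the plus strand, began at nucleotide 58 of the 3′ UTR, was present in 5 of 5 isoforms and was followed by an A, which makes it an 8-base match. The TRAF1 match, at chr9:120904085-120904091 on the minus strand, began at nucleotide 929 of the 3′ UTR in 3 of 3 isoforms. The RELA match, at chr11:65655325-65655331 on the minus strand, fell in the 3′ UTR of 1 of 4 isoforms, and that isoform is not the canonical one. BIRC3 had no such match, but bases 2 to 7 followed by an A (GGTGCTA) matched at chr11:102339118-102339124 on the plus strand in 2 of 4 isoforms. A match is a description of letters and was not tested as a binding site.
TNFAIP3: gctgtcagtcatcaTGGTGCTAtcctctga
TRAF1: agaggccccaccttTGGTGCTttccagaat
RELA: ggccgctgctcactTGGTGCTccatgggct
BIRC3: cagtgtcctgcatgGGTGCTAggctgaatt

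The kB consensus, the 10-base motif recognised by NF-kB dimers, was searched on both strands of RefSeq promoter windows that run from 250 bases before to 50 bases after a gene start. Of the 9 members with a window, 5 held at least 1 match (NFKBIA, TNFAIP3, NFKB1, NFKB2 and BIRC3), beside 7.09% of 27305 genes. The members were listed as NF-kB genes, several of them known targets, so nothing is read from this count. The letters did not occur in the windows of TRAF1, RELA, TNFAIP2 or ICAM1. For each of the 5 genes the stretch of 60 bases with the match nearest to a start is printed, with matches in capitals, and none was tested as a binding site. The NFKBIA match lies 81 bases before the start (chr14:35404796-35404855, minus strand). The TNFAIP3 pair lies 67 and 55 bases before it (chr6:137867173-137867232, plus strand). The NFKB1 match lies 49 bases before it (chr4:102501285-102501344, plus strand), and the nearest NFKB2 match lies 21 bases before it (chr10:102395645-102395704, plus strand). The nearest BIRC3 match lies 135 bases before it (chr11:102317324-102317383, plus strand). Further matches, not printed, lie 199 bases before the BIRC3 start and 176, 107 and 78 bases before NFKB2 starts.
NFKBIA: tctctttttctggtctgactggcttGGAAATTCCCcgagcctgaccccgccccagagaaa
TNFAIP3: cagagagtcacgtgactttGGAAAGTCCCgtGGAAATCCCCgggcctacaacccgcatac
NFKB1: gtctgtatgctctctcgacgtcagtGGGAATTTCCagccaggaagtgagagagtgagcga
NFKB2: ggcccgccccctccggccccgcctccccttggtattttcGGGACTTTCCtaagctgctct
BIRC3: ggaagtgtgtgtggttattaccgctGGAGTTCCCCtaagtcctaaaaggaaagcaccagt

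Libraries held 39919554 to 70027392 reads assigned to genes, and levels are given as CPM, the count of a gene scaled to a fixed library total, after TMM scaling over the 12 libraries. COL4A1, a well-known miR-29 target, followed the labels: 377 CPM in the 786-O control and 72.1 with mimic, 525 to 550 in A-498 controls and 97.1 to 98.9 with mimic, and 680 to 762 in ACHN controls and 2034 to 2382 with inhibitor. The 10 renal epithelial and clear cell carcinoma markers summed to 6008 CPM in the 786-O control and 7425 with mimic, to 5017 to 5195 in A-498 controls and 5810 to 5915 with mimic, and to 5083 to 5442 in ACHN controls and 4184 to 4347 with inhibitor. VIM, the mesenchymal filament vimentin, moved with this sum, at 4085 and 5435 CPM in 786-O, 1699 and 2194 on average in A-498, and 2053 and 1542 in ACHN, controls first. The sum was higher with mimic in both mimic lines and lower with inhibitor, and its part in the results was not tested. Not all of its genes moved with it in the mimic lines. KRT18 was higher with mimic in both, but CA12 and CDH6 were lower in both. CA12 was at 41.6 and 21.9 CPM in 786-O and 1006 and 724 on average in A-498, controls first. CDH6 was at 509 and 379 CPM in 786-O and 497 and 264 in A-498. CA9, a marker of clear cell carcinoma, was near 0 in 786-O (0.0463 and 0.331 CPM) and in ACHN (0.166 CPM at most). It reached 7.11 to 10.9 CPM in A-498. NDUFA4L2, of the same list, was at 0.116 and 0.189 CPM in 786-O and averaged 0.154 CPM in A-498 controls. PAX2 was at 31.4 CPM in the 786-O control and averaged 1.26 CPM in A-498 controls. The sum was largely VIM in 786-O. The 6 leukocyte markers summed to 1.04 to 7.33 CPM and the 4 endothelial markers to 0.225 to 3.35 CPM; the defining T cell marker CD3E was at 0 in 5 of the 6 groups. In A-498 the leukocyte sum was 4.47 to 4.99 CPM with mimic and 2.56 to 2.92 CPM in controls. Most of it was ITGAM, at 4.051 to 4.316 CPM with mimic and 2.085 to 2.436 CPM in controls. CD14 averaged 0.314 CPM with mimic and 0.307 CPM in controls. The part of the leukocyte sum in the A-498 differences below was not tested. A further 2 libraries of A-498 that the authors left out, as they may carry the wrong label, are not analysed here.

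In the lines that received the mimic, TRAF1 had the widest differences of the 10 genes, and they ran in opposite directions. It was lower with mimic in 786-O, higher with mimic in A-498, and higher with inhibitor in ACHN. Of the 10 genes, 9 were lower with mimic in 786-O, as were 51.0% of all genes. In both A-498 mimic libraries 8 lay above the controls and 1 below (36.3% and 38.2% of all genes), and in all ACHN inhibitor libraries 6 lay above the controls (25.3%, while 17.4% lay below). Above in both A-498 mimic libraries and below in 786-O by more than counting error were 7 of the 10, beside 6.77% of 17473 genes measured in both lines; the rule used these contrasts, so nothing is read from the counts. By the calls used further on, 25.5% of all 19676 genes tested in A-498 were called higher and 27.0% lower at an adjusted p under 0.05 by edgeR, 17.3% of 17904 genes in ACHN were called higher and 14.4% lower, and in 786-O 19.0% of 20370 genes were past 1.5-fold lower and 15.7% past 1.5-fold higher. TNFAIP3 had the same pattern as TRAF1, and RELA and RELB had it too, with smaller differences. NFKB1 was lower with mimic in both mimic lines.

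**Figure D1:**
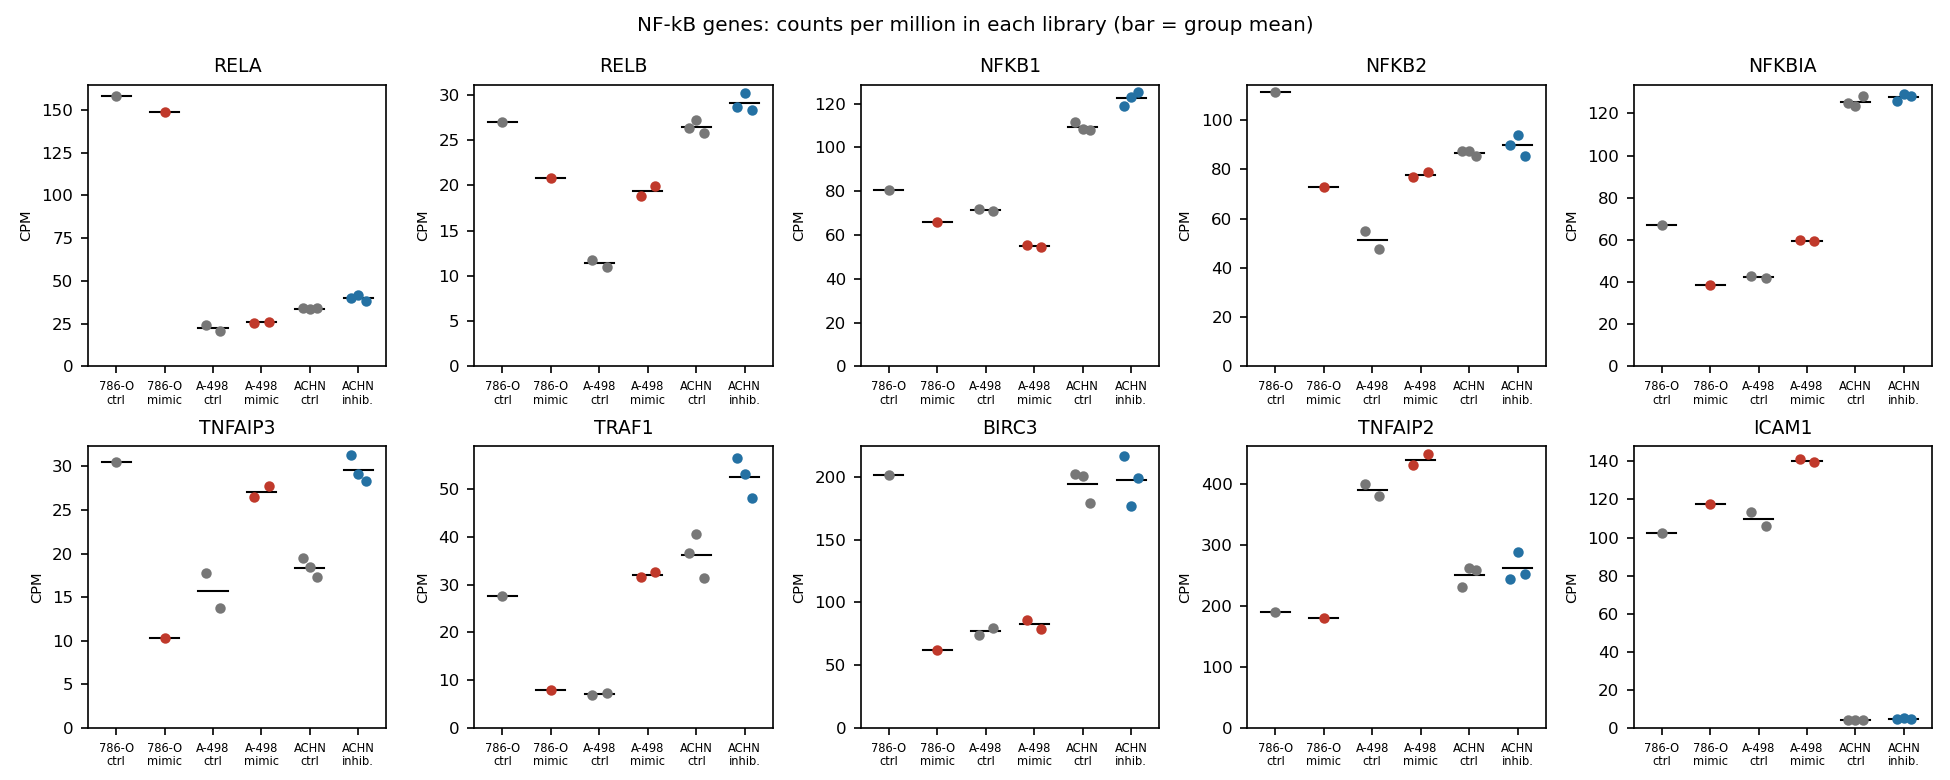
CPM (linear axes starting at 0) of each of the 10 genes in every library, by line and treatment; each point is 1 library and each bar a group mean (n = 1 in 786-O, 2 in A-498, 3 in ACHN). TRAF1 stood at 27.7 CPM in the 786-O control and 7.97 with mimic, and near 7 CPM in A-498 controls and above 31 CPM with mimic.

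Positions are GRCh38 gene bounds from GENCODE v44. Among the subunits, RELA (ENSG00000173039, chr11:65653599-65663090, minus strand), the main activating subunit of the canonical route, was far more abundant in 786-O than in the other lines. RELA measured 158 CPM in the 786-O control and 149 CPM with mimic. It measured 24.2 and 20.7 CPM in the A-498 controls and 25.5 and 26.2 CPM with mimic. In ACHN it measured 34.2, 33.3 and 34.0 CPM in controls and 40.02, 41.6 and 38.3 CPM with inhibitor. Both treated groups with replicates lay above their controls without overlap, but the distance was small. The log2 fold change was 0.22 (SE 0.07) in A-498, where it was 0.10 without control replicate 3, and 0.22 (SE 0.05) in ACHN. In 786-O the log2 ratio was -0.12 (95% exact binomial interval -0.17 to -0.08), an interval that covers counting error only, as for every 786-O ratio below.

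RELB (ENSG00000104856, chr19:45001461-45038192, plus strand), the partner of p52, was the subunit with the largest difference in A-498. Its level was 27.0 CPM in the 786-O control and 20.8 CPM with mimic. The A-498 controls had 11.8 and 11.0 CPM and the mimic libraries 18.8 and 19.9 CPM. The ACHN controls had 26.3, 27.2 and 25.7 CPM and the inhibitor libraries 28.7, 30.2 and 28.3 CPM. The A-498 mimic libraries thus lay between the A-498 controls and the controls of the other lines. The log2 fold changes were 0.78 (SE 0.07) in A-498 and 0.11 (SE 0.05) in ACHN, where the value was 0.07 without inhibitor replicate 2, and the 786-O log2 ratio was -0.41 (-0.54 to -0.28).

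NFKB2 (ENSG00000077150, chr10:102394110-102402524, plus strand), the precursor of p52, had 111 CPM in the 786-O control and 73.0 CPM with mimic. It had 54.8 and 47.8 CPM in A-498 controls and 76.7 and 79.1 CPM with mimic. In ACHN the controls (87.4, 87.4 and 85.5 CPM) and inhibitor libraries (89.8, 94.1 and 85.6 CPM) overlapped. The non-canonical pair RELB and NFKB2 therefore had like signs in both mimic experiments. The log2 values for NFKB2 were -0.64 (-0.71 to -0.58) in 786-O, 0.62 (SE 0.06) in A-498 and 0.03 (SE 0.05) in ACHN.

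NFKB1 (ENSG00000109320, chr4:102501330-102617302, plus strand), the precursor of p50, was the only one of the 10 genes below its controls in both A-498 mimic libraries. It had 80.7 CPM in the 786-O control and 66.0 CPM with mimic. A-498 had 71.8 and 71.0 CPM in controls and 55.3 and 54.4 CPM with mimic. ACHN had 112, 108 and 108 CPM in controls and 119, 123 and 125 CPM with inhibitor. The treated groups of A-498 and ACHN did not overlap their controls, and the sign in ACHN was opposite to that in the mimic lines. The log2 values were -0.33 (-0.40 to -0.26) in 786-O, -0.37 (SE 0.04) in A-498 and 0.14 (SE 0.04) in ACHN.

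Of the feedback inhibitors, TNFAIP3 stood apart from its controls in ACHN and NFKBIA did not. TNFAIP3 (ENSG00000118503, chr6:137867214-137883314, plus strand) measured 30.5 CPM in the 786-O control and 10.3 CPM with mimic. It measured 17.8 and 13.7 CPM in A-498 controls and 26.5 and 27.8 CPM with mimic. In ACHN it measured 19.5, 18.4 and 17.3 CPM in controls and 31.3, 29.2 and 28.3 CPM with inhibitor. The treated libraries stood apart from their controls in A-498 and ACHN, and TNFAIP3 had the largest log2 fold change of the 10 genes in ACHN (0.66, SE 0.06). Its log2 values were 0.80 (SE 0.09) in A-498 and -1.60 (-1.76 to -1.44) in 786-O. WAKMAR2 overlaps TNFAIP3 on the other strand. The library kit was stranded, but the study's methods do not state whether reads of these libraries were counted by strand.

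NFKBIA (ENSG00000100906, chr14:35401079-35404749, minus strand) measured 67.3 CPM in the 786-O control and 38.5 CPM with mimic. It measured 42.9 and 42.1 CPM in A-498 controls and 59.8 and 59.3 CPM with mimic. ACHN controls (125, 124 and 128 CPM) and inhibitor libraries (126, 129 and 128 CPM) overlapped. NFKBIA thus followed TNFAIP3 in sign in the mimic lines, whereas its log2 fold change in ACHN was 0.00 (SE 0.04). The other log2 values were -0.84 (-0.93 to -0.75) in 786-O and 0.50 (SE 0.05) in A-498.

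TRAF1 and BIRC3 act in the same receptor complexes. In A-498 and ACHN, the lines with replicates, the groups of TRAF1 did not overlap, whereas those of BIRC3 did. TRAF1 (ENSG00000056558, chr9:120902393-120929173, minus strand) measured 27.7 CPM in the 786-O control and 7.97 CPM with mimic. It measured 6.91 and 7.24 CPM in A-498 controls and 31.5 and 32.7 CPM with mimic. In ACHN it measured 36.6, 40.5 and 31.4 CPM in controls and 56.5, 53.1 and 48.0 CPM with inhibitor. The A-498 mimic libraries reached the range of the ACHN controls, and the 786-O mimic library came close to the A-498 controls. Its log2 values were -1.83 (-2.01 to -1.65) in 786-O, 2.19 (SE 0.07) in A-498 and 0.52 (SE 0.07) in ACHN.

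BIRC3 (ENSG00000023445, chr11:102317484-102339403, plus strand) measured 202 CPM in the 786-O control and 61.8 CPM with mimic. A-498 controls had 74.4 and 79.6 CPM and mimic libraries 86.2 and 78.9 CPM, and the groups overlapped. ACHN controls had 203, 201 and 179 CPM and inhibitor libraries 217, 177 and 199 CPM, which overlapped as well. BIRC3 was therefore low with mimic in 786-O, with a log2 ratio of -1.74 (-1.81 to -1.68), whereas the log2 fold change was 0.11 (SE 0.05) in A-498 and 0.00 (SE 0.06) in ACHN. The A-498 value ranged from 0.04 without mimic replicate 1 to 0.17 without mimic replicate 2, and was 0.05 without control replicate 1 and 0.19 with library size alone.

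The inducible targets TNFAIP2, a membrane-remodelling protein induced by TNF, and ICAM1, an adhesion molecule for leukocytes, had small differences. TNFAIP2 (ENSG00000185215, chr14:103121476-103137439, plus strand) measured 190 and 180 CPM in 786-O without and with mimic, 400 and 380 CPM in A-498 controls and 431 and 449 CPM with mimic. In ACHN the controls (231, 263 and 259 CPM) and inhibitor libraries (244, 289 and 252 CPM) overlapped. ICAM1 (ENSG00000090339, chr19:10271093-10286615, plus strand) measured 102 CPM in the 786-O control and 117 CPM with mimic, 113 and 106 CPM in A-498 controls and 141 and 140 CPM with mimic. ICAM1 was almost silent in ACHN, at 3.93, 4.31 and 4.15 CPM in controls and 4.78, 5.17 and 4.54 CPM with inhibitor. It was the only one of the 10 genes above its control in 786-O, with a log2 ratio of 0.16 (0.10 to 0.22), and its log2 fold changes were 0.37 (SE 0.04) in A-498 and 0.20 (SE 0.10) in ACHN. On the other strand, LINC00677 overlaps TNFAIP2, and ICAM4-AS1 and LIMASI overlap ICAM1. For TNFAIP2 the log2 values were -0.12 (-0.16 to -0.07) in 786-O, 0.19 (SE 0.04) in A-498 and 0.04 (SE 0.06) in ACHN.

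**Figure D2:**
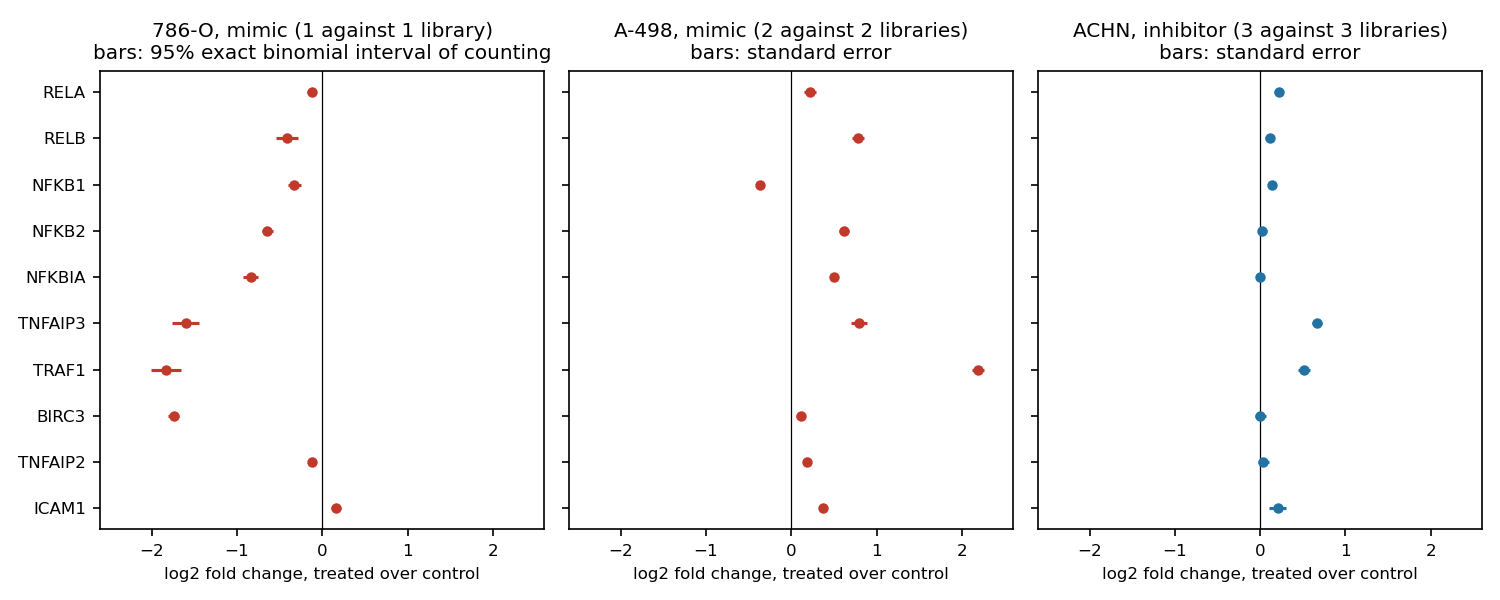
Log2 fold change of treated over control (x axis) for each of the 10 genes in the 3 lines; bars are the 95% exact binomial interval of counting in 786-O and the standard error in A-498 and ACHN. TRAF1 lies at 2.19 for A-498, at 0.52 for ACHN and at -1.83 for 786-O.

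All 10 genes passed the filter on low counts in every fit. In A-498, 8 of the 10 were called higher and 1 lower, beside the 25.5% and 27.0% of all genes given above. With library size alone in place of TMM, the split over all genes moved from 5015 higher and 5313 lower to 6191 higher and 4352 lower, and 9 of the 10 were called higher. In ACHN, 4 were called higher (TNFAIP3, TRAF1, RELA and NFKB1) and no log2 fold change was below 0, beside 17.3% and 14.4% of all genes. The call for NFKB1 was lost without control replicate 2, without control replicate 3 or without inhibitor replicate 3, and that for RELA in A-498 without control replicate 3, without mimic replicate 2 or with DESeq2. In 786-O, 5 were past 1.5-fold lower and 0 past 1.5-fold higher, beside 19.0% and 15.7% of all genes. The median log2 value of the 10 was 0.43 in A-498, 0.13 in ACHN and -0.53 in 786-O, beside -0.01 to 0.00 for all genes. Since these contrasts belong to the choice of the genes, the counts and the calls of the 10 are a description and not a test result. In bulk cultures, a change in the share of cells that express a gene and a change in its RNA per cell cannot be told apart.

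The control libraries are also the reference side of the contrasts that chose the genes. Their levels in the 3 lines are therefore given as a description, with no p. In edgeR's fit of the 6 control libraries all 10 genes were called between A-498 and ACHN, with 8 lower in A-498 (36.6% of 21737 genes were called lower) and ICAM1 and TNFAIP2 higher (38.7% were called higher). TRAF1 averaged 7.08 ± 0.231 CPM (SD, n = 2) in A-498 and 36.1 ± 4.57 CPM (SD, n = 3) in ACHN, a log2 difference of -2.37 (SE 0.08). NFKBIA averaged 42.5 ± 0.580 CPM and 126 ± 2.46 CPM, a log2 difference of -1.58 (SE 0.05). ICAM1 was 110 ± 5.09 CPM in A-498 and 4.13 ± 0.189 CPM in ACHN, a log2 difference of 4.72 (SE 0.07). The difference of TNFAIP3 was the smallest (-0.24, SE 0.08). It was -0.06 without A-498 control replicate 3 and -0.43 without A-498 control replicate 1, and its call was lost in the former fit and with DESeq2.

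The 786-O control is a single library, so its differences have no replicate check and a gene counts as different past 1.5-fold. Against A-498 controls, 7 of the 10 genes were past 1.5-fold higher in 786-O (32.0% of all genes) and 1 past 1.5-fold lower (36.1%). RELA was the extreme, with a log2 difference of 2.86, followed by TRAF1 at 2.02 and BIRC3 at 1.44. TNFAIP2 was the lower gene, at -0.99. ICAM1 was at -0.05 and NFKB1 at 0.22, or at 0.11 with library size alone, a scaling that placed the median of all genes at -0.19 instead of -0.07. Against ACHN controls, 3 genes were past 1.5-fold higher in 786-O (33.7% of all genes) and 1 past 1.5-fold lower (33.5%). The higher genes were ICAM1 (4.67), RELA (2.26) and TNFAIP3 (0.76), and the lower one was NFKBIA (-0.87). TRAF1 was at -0.35, BIRC3 at 0.09 and RELB at 0.06. Controls of 786-O and A-498 received control mimic and those of ACHN control inhibitor. In the contrasts with ACHN the line and the control oligonucleotide therefore cannot be told apart. The sample labels used here name no sequencing run. Any run difference between lines, also between 786-O and A-498, could therefore not be told apart from the line. Reads without a gene were 45.74% in the 786-O control and 37.25% and 38.72% in the A-498 controls. The 10 most abundant genes of a library took 8.98% of its reads in 786-O and 5.11% and 5.00% in A-498. The part of this in the level differences was not tested.

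Levels of different genes were compared only after CPM was divided by exon length and rescaled to a common total per library. On this scale TNFAIP2 was the highest of the 10 in all 3 control groups, at 124 in 786-O, 274 ± 5.18 (SD, n = 2) in A-498 and 165 ± 13.6 (SD, n = 3) in ACHN. ICAM1 came next in 786-O (98.3) and A-498 (113 ± 3.33) but was last in ACHN (3.98 ± 0.235), where NFKBIA came next (123 ± 3.40). TRAF1 was the lowest in A-498 controls (5.62 ± 0.278), below TNFAIP3 (8.67 ± 1.44). The ranges of RELA and RELB overlapped in A-498 controls, and those of RELB and TRAF1 in ACHN controls. With the longest transcript as the length, RELA (130) stood above TNFAIP2 (105) in 786-O.

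**Figure D3:**
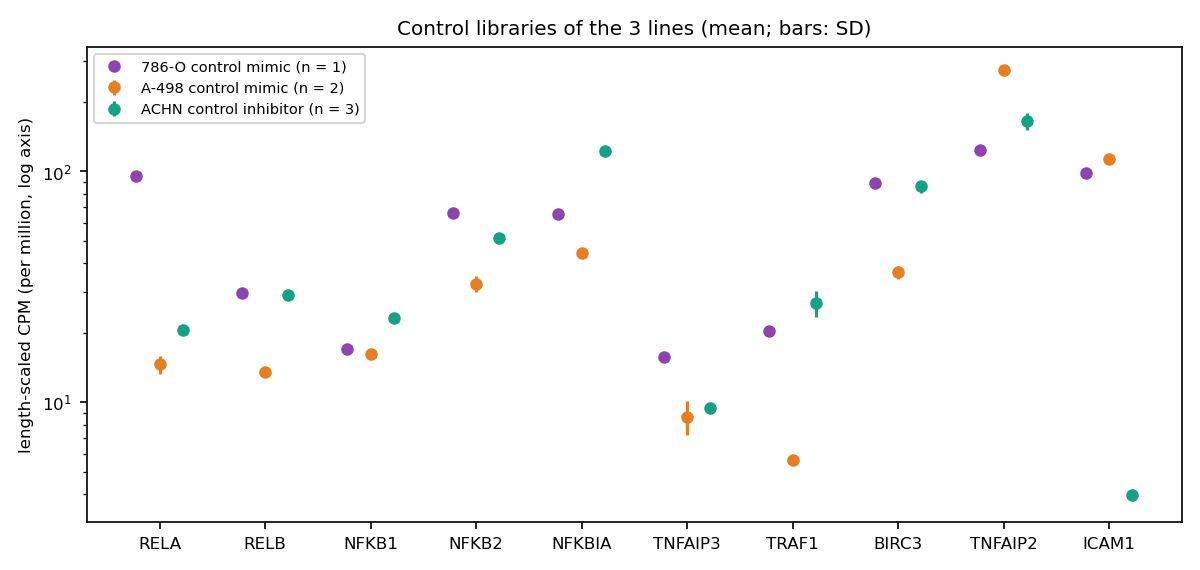
Length-scaled CPM (log axis) of the 10 genes in control libraries of 786-O (n = 1), A-498 (n = 2) and ACHN (n = 3); points are means and bars SD. ICAM1 lies near 4 in ACHN and near 100 in the other lines, and RELA is highest in 786-O at 95.8.

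The levels of IL6, a cytokine induced by NF-kB, followed those of TRAF1 most closely over the 12 libraries (Pearson r = 0.988 on log2 CPM, among 9905 genes). PLCL2 (r = 0.952), KLHDC7A (r = 0.945), IRF1 (r = 0.940), a transcription factor induced by interferon and NF-kB, and PARP8 (r = 0.931) came next. IL6 averaged 11.0 CPM in the 786-O control and 2.77 with mimic, 2.68 in A-498 controls and 11.1 with mimic, and 10.8 in ACHN controls and 15.8 with inhibitor. Of the 10 genes, NFKBIA (r = 0.874), RELB (0.854) and NFKB2 (0.805) were the most like TRAF1, then BIRC3 (0.785), TNFAIP3 (0.766) and NFKB1 (0.583). RELA (-0.05), TNFAIP2 (-0.16) and ICAM1 (-0.68) were not. The libraries share lines and treatments, so these values describe and carry no p.

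**Figure D4:**
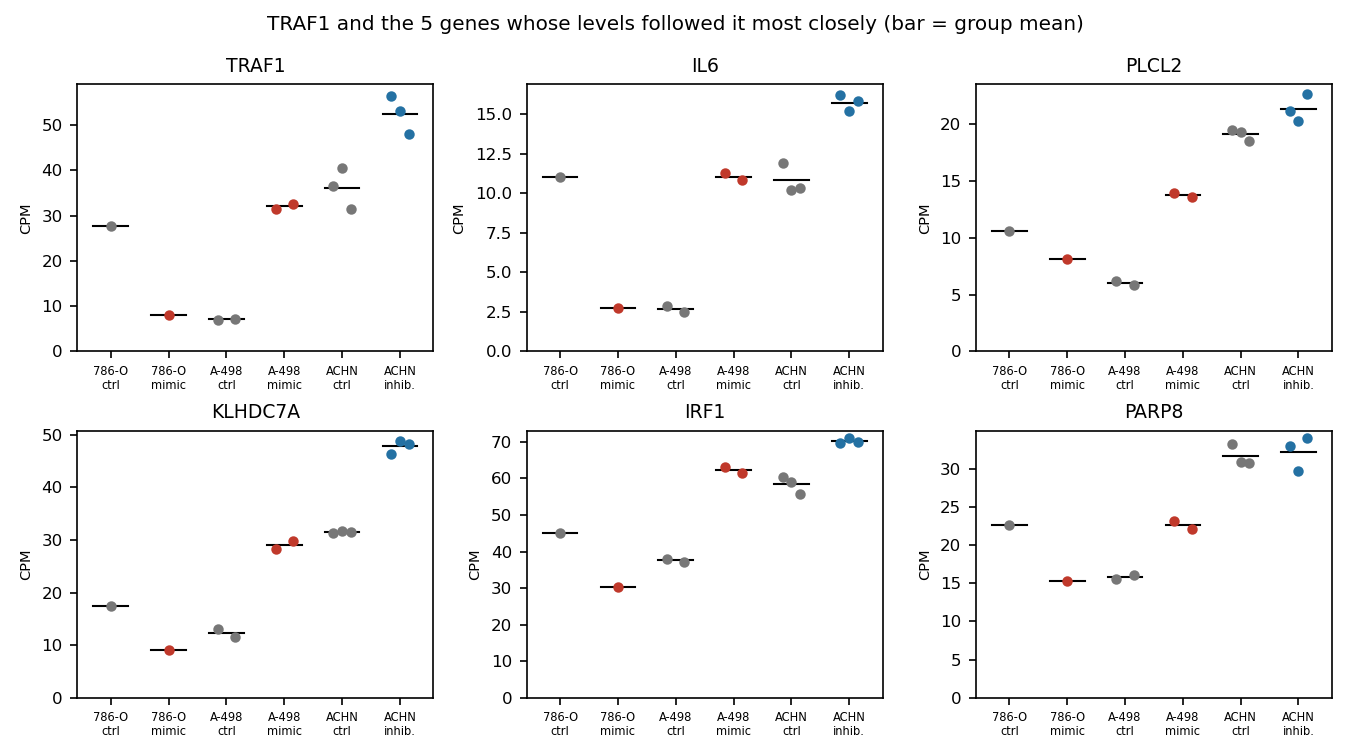
CPM (linear axes starting at 0) of TRAF1 and of the 5 genes most like it in every library; points are libraries and bars group means. IL6 stands at 11.0 in the 786-O control and 2.77 with mimic, and at 2.68 in A-498 controls and 11.1 with mimic.

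The rest of the pathway was read from a list of 91 genes grouped by role, of which 90 were matched by symbol and 82 were tested in each line. In A-498, 36 of the 82 were called higher and 24 lower with mimic (25.5% and 27.0% of all genes), with a median log2 fold change of 0.10 against 0.00 for all genes. Target genes other than the 10 had 11 of 21 higher and 4 lower, and receptors had 3 of 11 higher and 7 lower. Genes are named here only where their average log2 CPM over mimic and control libraries reached 3. A gene can reach this limit through the group where it is high, as CXCL8 and CXCL2 did with mimic. IL6, at 2.68 CPM in controls and 11.1 with mimic, stayed under it. Within the limit, the chemokines CXCL8 (3.23, SE 0.07, adjusted p = 2.49e-13) and CXCL2 (1.95, SE 0.09, adjusted p = 4.19e-10) rose most. They were followed by IRAK2, a kinase of the interleukin-1 receptor complex (1.29, SE 0.06, adjusted p = 8.78e-10), and IRF1 (0.74, SE 0.05, adjusted p = 1.13e-08). CXCL8 went from 4.53 and 4.38 CPM in controls to 40.6 and 42.3 CPM. The largest falls were in TNFRSF11A, the receptor RANK (-1.74, SE 0.09, adjusted p = 6.86e-10), BIRC2, which encodes cIAP1 (-1.09, SE 0.05, adjusted p = 2.73e-10), MAVS, the mitochondrial adaptor of RNA sensing (-0.97, SE 0.04, adjusted p = 2.36e-10), and the chemokine CCL2 (-0.93, SE 0.06, adjusted p = 8.26e-09).

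In ACHN, 26 of the 82 were called higher and 7 lower with inhibitor (17.3% and 14.4% of all genes), with a median log2 fold change of 0.07. The largest rises were in CSF2, the cytokine GM-CSF (0.92, SE 0.08, adjusted p = 1.13e-07), IL1RAP, the accessory chain of the interleukin-1 receptor (0.89, SE 0.06, adjusted p = 2.12e-09), IL6 (0.52, SE 0.07, adjusted p = 2.27e-05) and BIRC2 (0.48, SE 0.06, adjusted p = 2.73e-06). CXCL2 fell (-0.48, SE 0.05, adjusted p = 9.44e-07), as did MALT1, a protease of the antigen receptor route (-0.24, SE 0.05, adjusted p = 0.000431), and the receptor IL1R1 (-0.24, SE 0.06, adjusted p = 0.00606). RNF31, the catalytic subunit of the linear ubiquitin ligase, was the fourth (-0.23, SE 0.08, adjusted p = 0.0357), but its call was lost in 4 of 6 fits with 1 library left out (without control replicate 2 or 3 and without inhibitor replicate 1 or 3), with adjusted p from 0.0842 to 0.152. BIRC2, MAVS, TNFRSF11A and CCL2 had log2 ratios of -1.58, -1.15, -1.17 and -2.98 in 786-O, the same sign as in A-498. CXCL8 was at -2.14, CXCL2 at -1.01, IRAK2 at -0.71 and IRF1 at -0.61 in 786-O, opposite in sign to A-498.

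In 786-O, 31 of the 82 were past 1.5-fold lower and 6 past 1.5-fold higher with mimic (19.0% and 15.7% of all genes), with a median log2 ratio of -0.43 against -0.01. The target genes had 13 of 21 lower and 1 higher, and the receptors 7 of 11 lower and 0 higher. TNF, the prototype ligand of the canonical route, had 4.17 CPM in the control and 0.473 CPM with mimic, from 180 and 20 reads, while the other lines had 0.178 CPM or less in every library. TNF is named here after its values were seen. The 82 tested genes were not all the same in the 3 lines, and each line is given on its own.

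**Figure D5:**
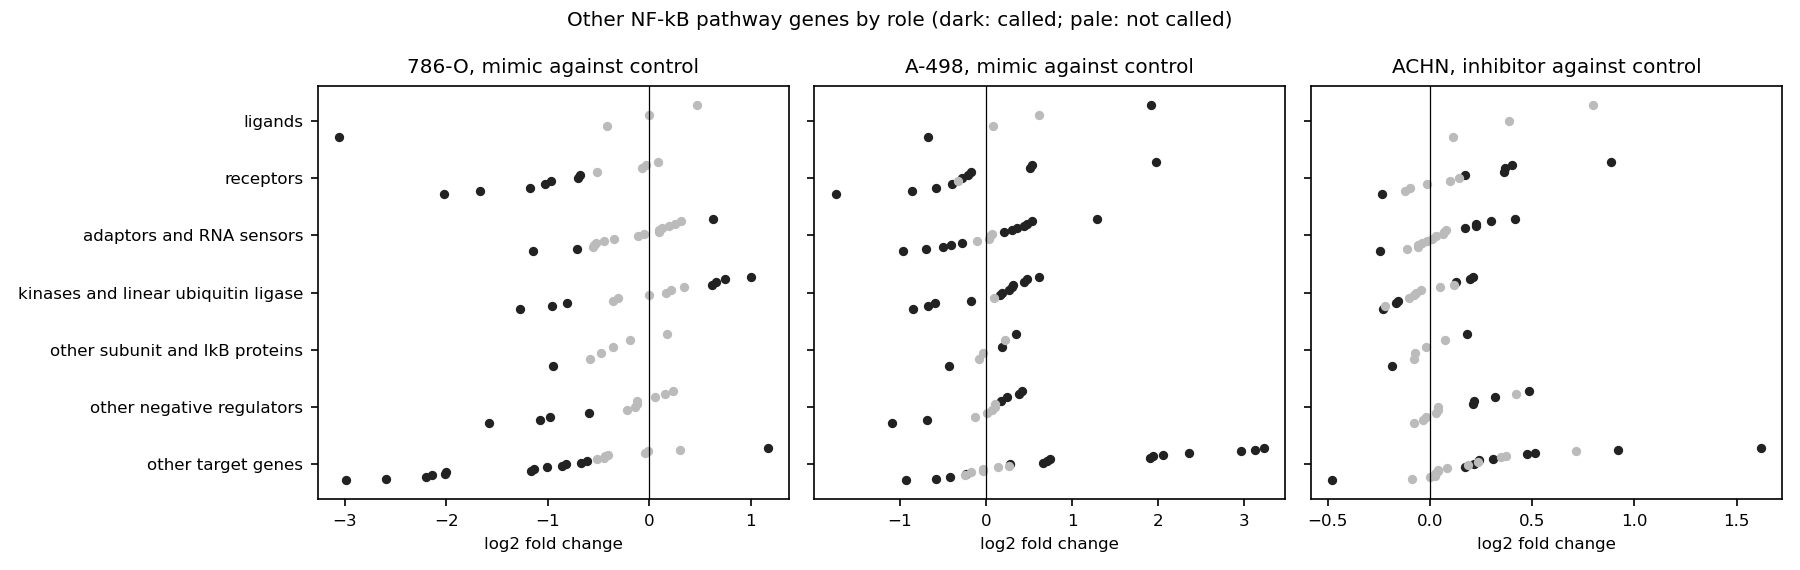
Log2 fold change (x axes, each with its own range) of the other NF-kB pathway genes by role in the 3 lines; each point is a gene, dark where called (adjusted p under 0.05 in A-498 and ACHN, past 1.5-fold in 786-O). Target genes reach 3.23 in A-498, while 13 of 21 are past 1.5-fold lower in 786-O.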

How the data were processed

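RNA of 12 libraries was rRNA-depleted, prepared with a stranded kit and sequenced as paired 100-base reads. The authors aligned reads to GRCh38 with HISAT2 and counted them per Ensembl v87 gene with HTSeq; versions of these tools are not given in the sources used here. The deposited values are raw counts. Rows without a gene, 37.25% to 48.00% of reads, were left out. Tables of the authors' DESeq2 comparisons (fold changes and p-values) were not used. Symbols and exon lengths came from GENCODE v44 for 56948 of 58051 IDs (98.1%). Genes, lists and tests were chosen with earlier results of these data known.

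Tests used edgeR 4.0.16 in R 4.3.3 (quasi-likelihood test, TMM, filterByExpr, Benjamini-Hochberg over all tested genes, called at adjusted p under 0.05), fitted per line, and over the 6 control libraries for contrasts between lines. 786-O had 1 library a group: genes with at least 10 reads in both together got a log2 ratio with a prior count of 2. Contrasts of its control with the other lines are given as fitted log2 differences, read at 1.5-fold and without a test. The named pathway genes were, in A-498 and in ACHN, the 4 called genes with the largest rise and the 4 with the largest fall. They were taken among those whose average log2 CPM over treated and control libraries reached 3. The genes named beside TRAF1 were the 5 with the highest Pearson r at a mean log2 CPM of at least 3. The fits were tested on simulated counts. Replicates differed beyond sampling noise (chi-square per degree of freedom 3.87 to 12.2). The spread between replicates was a coefficient of variation of 3.83% in A-498, 5.25% in ACHN and 4.61% in the controls. Intervals cover counting error only. Alternatives were RLE factors, library size alone, no filter, DESeq2 1.42.0, 1 fit over 12 libraries, a replicate block and libraries left out.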

Additional observations from a re-analysis of the deposited data

Results flagged for a closer look

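For 7 of the 10 genes, both A-498 mimic libraries lay above both controls while the 786-O mimic library lay below its control by more than counting error, as did 6.77% of the 17473 genes measured in both lines. The difference between the lines was not tested, since TRAF1 was chosen for it and 786-O had 1 library a group. TRAF1 was at 2.19 in A-498 and -1.83 in 786-O on the log2 scale. TNFAIP3 was at 0.80 and -1.60, RELB at 0.78 and -0.41, NFKB2 at 0.62 and -0.64, and NFKBIA at 0.50 and -0.84. RELA was at 0.22 and -0.12 and TNFAIP2 at 0.19 and -0.12. Groups of fewer than 4 libraries were not searched for single outlying libraries.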

How the results depend on the processing

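Of 238 counts recomputed under an alternative, 222 stayed within 1.5 times the reported count, and of 628 single-gene values 580 kept their direction and side of the threshold or stayed within counting error, 12 lost and 3 gained a call, 33 from single 786-O libraries moved by more than counting error, and 0 reversed. Of all genes, 14996 were past 1.5-fold lower and 10874 higher in the 786-O than in the A-498 control with DESeq2, and 15216 and 10651 without a filter, in place of 7839 and 6956. Against ACHN the numbers were 13124 and 11862 with DESeq2 and 13486 and 11177 without a filter, in place of 7287 and 7316. More genes enter without the filter. With a 2-fold limit in 786-O, 3 of the 10 genes were lower in place of 5, and 18 pathway genes were lower and 2 higher in place of 31 and 6. With the longest transcript as the length, the number of the 10 genes at the same rank was 3 in 786-O controls, 4 in 786-O mimic, 5 in A-498 mimic and 6 in ACHN controls. Over the 10 libraries of A-498 and ACHN, 1 of the 5 genes most like TRAF1 stayed among the top 5; the cause was not tested. With bases 2 to 7 followed by an A, 2 of the 10 genes held a match (TNFAIP3 and BIRC3) in place of 3.

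In ACHN the replicate block gave 4 of the 10 genes higher and 0 lower, 25 pathway genes higher and 7 lower, and 3125 genes higher and 2638 lower over all; it changed no call of a named gene. Deviations of same-numbered libraries correlated at -0.03 to 0.00, so the numbers were not taken as pairs. No paired analysis was possible in A-498 and 786-O because their groups share 1 replicate number each. Leaving out an A-498 library leaves 1 in its group, which is then assumed to vary like the other. The 786-O values have no replicate check, and ICAM1 in ACHN rests on 166 to 307 reads per library.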

Other observations

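Some signalling genes were lower with mimic in both mimic lines, and others were higher in both. All were picked after their values were seen, so their p-values are a description. TNFRSF1A, the main TNF receptor, was at -0.85 in A-498 (log2 fold change, adjusted p = 3.16e-10 by edgeR) and -1.02 in 786-O (log2 ratio). TAB1, which activates the kinase TAK1, was at -0.84 (adjusted p = 3.11e-07) and -1.28, and MAP3K14, the NF-kB-inducing kinase of the non-canonical route, at -0.67 (adjusted p = 1.13e-07) and -0.81. With inhibitor in ACHN, TAB1 was at 0.21, TNFRSF1A at 0.10 and MAP3K14 at 0.12, and of these TAB1 passed the test (adjusted p = 0.0243). The kinase genes MAP3K7, which encodes TAK1, and CHUK were higher with mimic in both lines. Their 786-O log2 ratios were 1.005 and 0.66. In A-498, MAP3K7 averaged 59.8 CPM in controls and 72.9 with mimic, and CHUK 47.2 and 63.6. The listed genes with the same sign in both lines were not counted.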
